A study of Mus musculus with 42 samples.

Results

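Foxn4, a forkhead transcription factor, reached a signal of 1000 or more in 20 of the 42 single retinal cells profiled (47.6%, exact 95% interval 32.0 to 63.6%), and those 20 cells are described here against the other 22. The signal of Foxn4 chose the cells, so that its own level is a description and supports nothing. Every cell was labelled a retinal progenitor of the CD1 mouse strain, with no mutation or treatment named, and each was picked by hand from a retina dissociated to single cells and measured on 1 array. The cells with Foxn4 were 5 of the 11 cells from embryonic day (E) 12.5, 2 of the 4 from E13.5, both from E14.5, the only cell from E15.5, 6 of the 11 from E16.5 and 4 of the 13 from the day of birth (P0). E13.5, E14.5 and E15.5 are combined below, with 5 cells with Foxn4 and 2 without. Both cells without Foxn4 in this combined stage are of E13.5, so that Foxn4 status and day cannot be told apart for E14.5 and E15.5. Of the 42 cells, 6 are classed as transitional between a progenitor and a neuron. Of these, 4 had Foxn4 (cell A6 of E13.5, cell B1 of E14.5, cells E5 and F1 of E16.5) and 2 did not (E16.5 cell D5 and P0 cell C5). No animal or litter is named for a cell, and cells of 1 stage are not replicates of a condition, so that no p-value is given. The intervals given with shares of cells are exact (Clopper-Pearson, 95%) and reflect counting error alone.

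Foxn4 is known in the mouse retina from a subset of dividing progenitor cells. Without it, horizontal cells are lost and most amacrine cells are missing, and it is placed upstream of the fate factors Ptf1a, Rorb, Neurod1 and Neurod4 and of the Notch ligand Dll4. Horizontal and amacrine cells are the interneurons that modify signals on their way from photoreceptors to ganglion cells. Proteins of its branch of the forkhead family bind a short motif, GACGC, which differs from the motif of most forkhead proteins.

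Promoters of 4 genes on which the results turn are shown, each the 250 bases before the start of the gene in the RefSeq annotation of GRCm38.p6, to give the context of that motif. They are Foxn4 itself (chr5:114273762-114274011, minus strand), the LIM homeobox factor Isl1, found only in cells with Foxn4 (chr13:116309689-116309938, minus strand), the nuclear receptor Rorb (chr19:19111197-19111446, minus strand, the first of 2 starts listed) and Neurl4, a neuralized family gene with one of the largest differences (chr11:69901566-69901815, plus strand). Matches to GACGC, or to GCGTC where the motif lies on the other strand, are in capitals.
Foxn4: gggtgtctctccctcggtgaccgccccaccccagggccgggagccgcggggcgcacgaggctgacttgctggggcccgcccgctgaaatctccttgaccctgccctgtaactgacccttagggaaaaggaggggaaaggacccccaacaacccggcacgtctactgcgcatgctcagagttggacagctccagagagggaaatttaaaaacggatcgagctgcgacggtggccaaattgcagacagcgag
Isl1: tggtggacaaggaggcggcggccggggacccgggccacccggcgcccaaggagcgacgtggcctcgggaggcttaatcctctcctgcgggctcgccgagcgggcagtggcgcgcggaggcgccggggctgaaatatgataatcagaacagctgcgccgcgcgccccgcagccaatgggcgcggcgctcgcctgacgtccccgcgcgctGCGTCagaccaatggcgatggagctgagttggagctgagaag
Rorb: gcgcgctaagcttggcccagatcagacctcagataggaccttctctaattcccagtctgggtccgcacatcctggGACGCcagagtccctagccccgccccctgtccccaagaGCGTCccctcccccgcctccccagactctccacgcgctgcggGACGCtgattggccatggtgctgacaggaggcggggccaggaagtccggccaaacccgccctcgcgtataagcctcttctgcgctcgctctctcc
Neurl4: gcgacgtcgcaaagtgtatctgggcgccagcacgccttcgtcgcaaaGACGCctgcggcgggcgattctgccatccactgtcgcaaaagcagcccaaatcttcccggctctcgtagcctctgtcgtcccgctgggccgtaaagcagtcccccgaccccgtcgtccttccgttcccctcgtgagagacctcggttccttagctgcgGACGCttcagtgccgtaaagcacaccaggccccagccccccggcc
The Foxn4 promoter held no match, the Isl1 promoter 1, the Rorb promoter 3 and the Neurl4 promoter 2. At least 1 match was found in 22.6% of all 32851 promoters of this length and in 43.1% of the 6147 promoters of genes compared below. A match is a description of these letters and not a binding site.

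The Foxn4 signals ranged over a wide scale. Signals are those of the MAS 5.0 software on a linear scale, with every array scaled to a target intensity of 500, and they compare the same gene between cells but not different genes. Foxn4 is measured by 1 probe set. In the cells with Foxn4 the signal was at least 1040.5, with a median of 4339 and a highest value of 74909, and in the cells without Foxn4 it was at least 0.146, with a median of 248 and a highest value of 729. At E12.5, all 5 cells with Foxn4 lay close together, at 4508 in cell A4, 9964 in B1, 7813 in E1, 6068 in E3 and 9849 in G2. At the later stages the cells with Foxn4 were more spread. Cells A6 and B3 of E13.5 had 1499 and 2611, cells B1 and D7 of E14.5 had 15075 and 1627, and E15.5 cell B7 had 11256. At E16.5 the signal was 74909 in cell E5, 7446 in F4, 7319 in F5, 4171 in J1, 3104 in J4 and 1576 in F1, and at P0 it was 3982 in cell B5, 2864 in E5, 2416 in E2 and 1040.5 in B6. E16.5 cell E5 stood far above the next cell of its stage, and all 4 P0 values lay below the lowest value of E12.5. The cells nearest to the limit were P0 cell B6 (1040.5) and E13.5 cell A6 (1499) inside it, and P0 cell F3 (729), E12.5 cell E5 (631) and P0 cell A8 (587) outside it.

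**Figure D1:**
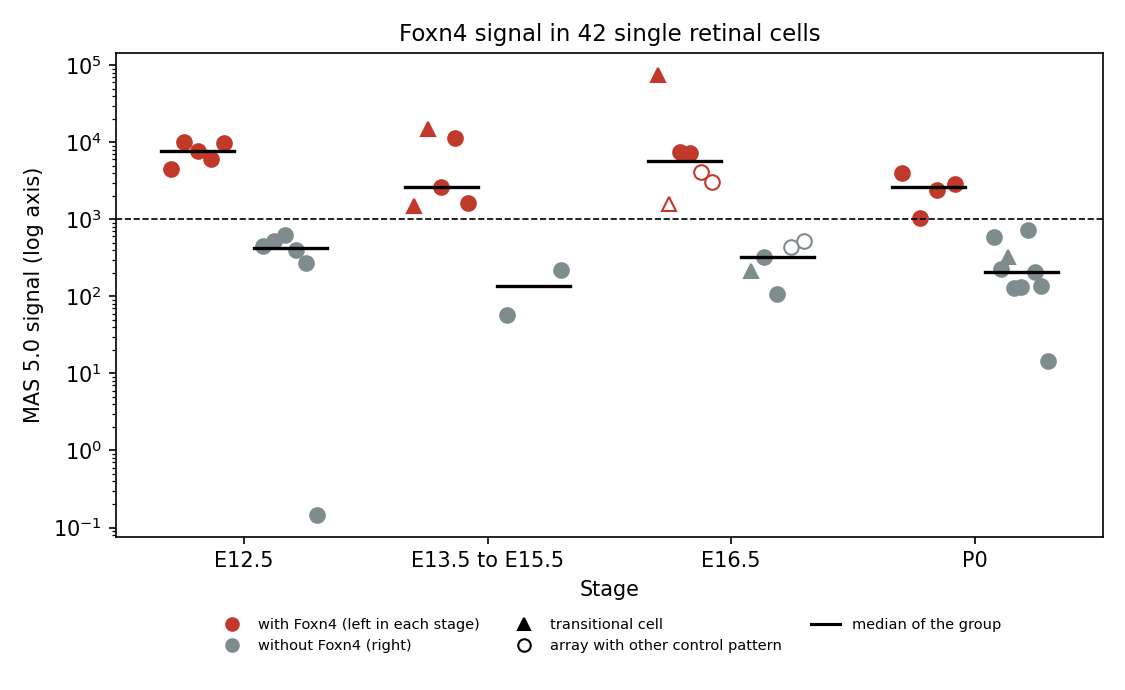
Foxn4 signal (vertical axis, MAS 5.0 signal, log axis) of each of the 42 cells by stage (horizontal axis), with the 20 cells with Foxn4 left of the 22 cells without it in each stage. The dashed line is the limit of 1000 that chose the cells, lines are medians, triangles are transitional cells, open symbols are arrays with another control pattern, and E16.5 cell E5 (74909) stands above all others.

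A gene was called present in a cell at a signal of 1000 or more, which served as the level of background. Transcripts may go missing as a single cell is amplified, so that a gene not called present may still have been expressed. Cells with Foxn4 tended to have more genes present, which bears on every gene compared. The median number of genes present, leaving out Foxn4, was 3361 in cells with Foxn4 (1437 to 5252) and 2815 in cells without (1386 to 4537). The medians were 3113 with and 2515.5 without Foxn4 at E12.5, 3356 and 3683.5 at E13.5 to E15.5, 3605 and 2644 at E16.5, and 3695.5 and 3062 at P0. Allowing for stage, the cells with Foxn4 had 514 more genes, and the ranges overlapped at every stage. The difference was 1008 genes with presence taken at 500, 104 with presence taken at 2000 and 260 with the mean of the probe sets. Among the 20 cells with Foxn4, E16.5 cell E5, with the highest Foxn4 signal, had 1437 genes, the fewest, and E16.5 cell F1, with a Foxn4 signal of 1576, had 5252, the most. With Foxn4 taken only at 5000 or more against under 1000, which leaves no P0 cell with Foxn4, the difference was -8.85 genes. On 5 arrays of E16.5 (cells F1, J1 and J4 with Foxn4, cells E8 and J2 without), the pattern of 18 hybridization control probe sets differed from the median array, with an SD of their log2 differences of 0.644 to 0.667, and on the remaining 37 arrays this SD did not exceed 0.197.

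**Figure D2:**
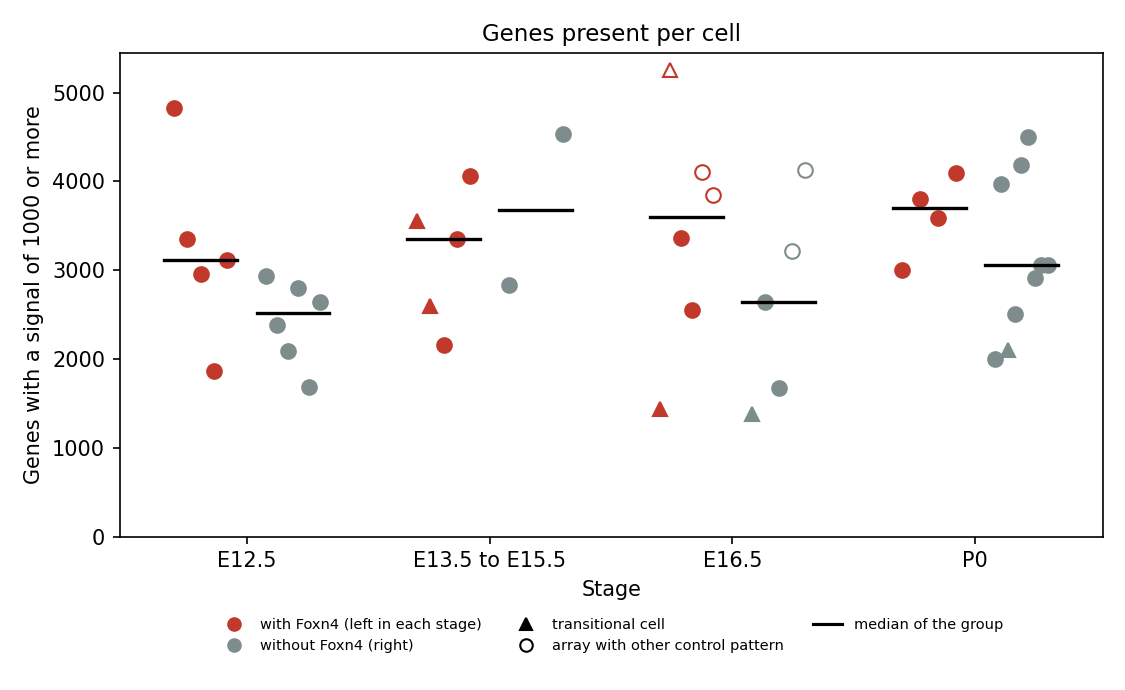
Genes present per cell (vertical axis, number of genes at 1000 or above) by stage (horizontal axis), with the cells with Foxn4 left of the cells without it. Lines are medians of each group at each stage (3113 genes with and 2515.5 without Foxn4 at E12.5, 3695.5 and 3062 at P0), triangles are transitional cells, open symbols are the 5 arrays with another control pattern, and the groups overlap at each stage.

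Genes were therefore compared by an adjusted difference, the difference in the percent of cells in which a gene was present, with Foxn4 minus without, fitted by least squares with the stage and the number of genes present per cell. It is given in percentage points, over 7471 genes present in 5 to 37 of the 42 cells. Its median over these genes was -0.70 points (SD over genes 14 points). A gene was called higher with Foxn4 at 40 points or more, or lower at -40 points or less, if it also differed in the same direction at each of E12.5, E16.5 and P0. Among all genes compared, 12 were called higher (0.161%) and 14 lower (0.187%), an adjusted difference of 20 points or more was found for 6.68%, one of -20 points or less for 8.61%, and one above 0 for 47.7%. The 26 called genes together made up 0.348%. The same direction at all 3 stages, whatever its size, was found for 19.8% (higher with Foxn4) and 4.51% (lower). These shares are the background for each group of genes below.

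Of the factors known to direct amacrine and horizontal fates, none was called, although Rorb, Isl1, Ebf3 and Neurod4 lay at 20 points or more, of which Ebf3 did not keep its direction under every setting. A mean of 26.4% of the 22 factors measured was present per cell with Foxn4 (SD over cells 8.55) and of 20.2% without (SD 8.95), an adjusted difference of 4.82 points. Of the 10 factors compared, 6 lay above 0 and 4 at 20 points or more, with a median of 12.8 points. The means by stage were 24.5% with and 16.7% without Foxn4 at E12.5, 29.1% and 15.9% at E13.5 to E15.5, 23.5% and 23.6% at E16.5, and 29.5% and 21.7% at P0, and the ranges overlapped at each stage. Ptf1a, the factor that commits cells to amacrine and horizontal fates, was present in 0 of the 20 cells with Foxn4 (which allows up to 16.8%) and in 1 of the 22 cells without, E16.5 cell D6 (1366). Its highest signal in a cell with Foxn4 was 474, in E13.5 cell A6.

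Rorb, a nuclear receptor needed for amacrine, horizontal and rod cells, was present in 19 of 20 cells with Foxn4 (95%, 75.1 to 99.9%) and 16 of 22 without (72.7%, 49.8 to 89.3%), an adjusted difference of 32.6 points. Its signal ran from 397 in E14.5 cell B1 to 206716 in E13.5 cell A6 with Foxn4 (median 4306) and from 78.4 to 11492 without (median 4444). The medians were close, and the difference lay in the cells where Rorb was absent: it was missing from 1 cell with Foxn4 and from 6 without (2 of 6 cells at E12.5, both at E13.5 and 2 of 5 at E16.5). At P0 it was present in all 4 cells with and all 9 without Foxn4.

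Isl1, a LIM homeobox factor of ganglion cells and of some amacrine and bipolar cells, was present in 6 of 20 cells with Foxn4 (30.0%, 11.9 to 54.3%) and 0 of 22 without (0 to 15.4%), an adjusted difference of 27.1 points. Its signal was 4314 in E12.5 cell A4, 8452 in E14.5 cell B1, 12172 in E16.5 cell E5, 1205 in E16.5 cell F1, 1046 in E16.5 cell J1 and 3335 in P0 cell E2. In the other cells with Foxn4 it reached at most 854 (E15.5 cell B7) and in the cells without Foxn4 at most 491 (E16.5 cell E8). The Isl1 cells thus came from early and late stages, but 3 of the 6 (E14.5 B1, E16.5 E5 and F1) were transitional, and without the transitional cells the adjusted difference was 15.0 points. E16.5 cells F1 and J1, the lowest of the 6, lay on arrays with another control pattern. Without the transitional cells and those arrays together, a setting added after seeing the data, the adjusted difference of Isl1 was 11.6 points. Isl1 was 1 of 15 genes present in 6 or more cells with Foxn4 and in none without, 0.201% of the genes compared, and 3 genes (Mtmr10, Edem3 and St3gal5), 0.0402%, showed the opposite. At 5 or more cells the counts were 35 (0.468%) and 17 (0.228%), and the most cells of a gene found in 1 group alone was 7 on either side. These counts make no allowance for the larger number of genes present in cells with Foxn4. The 15 included Ntrk2, which encodes the receptor for brain-derived neurotrophic factor, Kdm6b, a histone H3 lysine 27 demethylase, Mapk8ip2, Mmp11 and Ngly1, each in 7 cells with Foxn4. These genes were picked for that pattern.

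Neurod4, a bHLH factor of amacrine and bipolar cells, was present in 6 cells with Foxn4 (30.0%, 11.9 to 54.3%) and 1 without (4.55%, 0.115 to 22.8%), an adjusted difference of 24.1 points. Its signal was 5152 in E12.5 cell A4, 5256 in E14.5 cell D7, 32968 in E15.5 cell B7, 14611 in E16.5 cell F5, 10933 in P0 cell B5 and 1751 in P0 cell B6, and it was 3172 in P0 cell E6, the cell without Foxn4. None of these 7 cells was transitional, and without the transitional cells the adjusted difference was 29.7 points. The Neurod4 cells were mostly not the Isl1 cells: only E12.5 cell A4 held both, while all 7 held Rorb. The interval of the unadjusted difference was 2.29 to 47.7 points for Neurod4 and 8.56 to 51.9 points for Isl1 (Newcombe, 95%). It was -1.09 to 43.6 points for Rorb and -0.40 to 49.5 points for Ebf3. These intervals make no allowance for stage or number of genes present.

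Neurod1, a bHLH factor of amacrine and photoreceptor cells, went the other way, with 6 cells with Foxn4 (30.0%, 11.9 to 54.3%) and 10 without (45.5%, 24.4 to 67.8%), an adjusted difference of -20 points. At E16.5 it was present in none of the 6 cells with Foxn4 and in 3 of the 5 without. In the cells where it was present, the signal ran from 1998 to 34725 with Foxn4 and from 2511 to 16361 without. Ebf3, a factor of ganglion and amacrine cells, was present in 8 cells with Foxn4 and 3 without (28.0 points), and Six3, an early eye field factor, in 15 and 12 (18.6 points). Ebf3 rested on low signals, since 4 of its 8 cells with Foxn4 lay below 2000 (E12.5 A4 and B1, E16.5 F1 and P0 B6), and with presence taken at 2000 the adjusted difference was 5.25 points. With the same number of genes called present in every cell its direction turned, to -7.63 points.

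Of the other factors of these fates, Pax6, which marks progenitors as well as amacrine and ganglion cells, was present in 19 and 22 cells and Meis1 in 16 and 15, and the following were rare or not found. Onecut2, a factor of horizontal cells and cones, was present in 3 cells with Foxn4 (E12.5 cell G2 at 2692, E14.5 cell D7 at 2571 and E15.5 cell B7 at 1019) and in none without. Onecut1 was present in 1 cell with Foxn4 and in none without, the AP-2 factor Tfap2b in 4 and 4, Tfap2a in 1 and 1, and Barhl2 in 1 and 1. Prox1, a factor of horizontal cells, was present in 0 cells with Foxn4 and 2 without, and Neurod2 in 0 and 1. Lhx1, Neurod6 and Sall3 were present in no cell of either group. Amacrine and horizontal cell products (12 genes) were present at a mean of 14.6% with and 10.6% without Foxn4, with none of 7 called and 3 of 7 above 0.

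**Figure D3:**
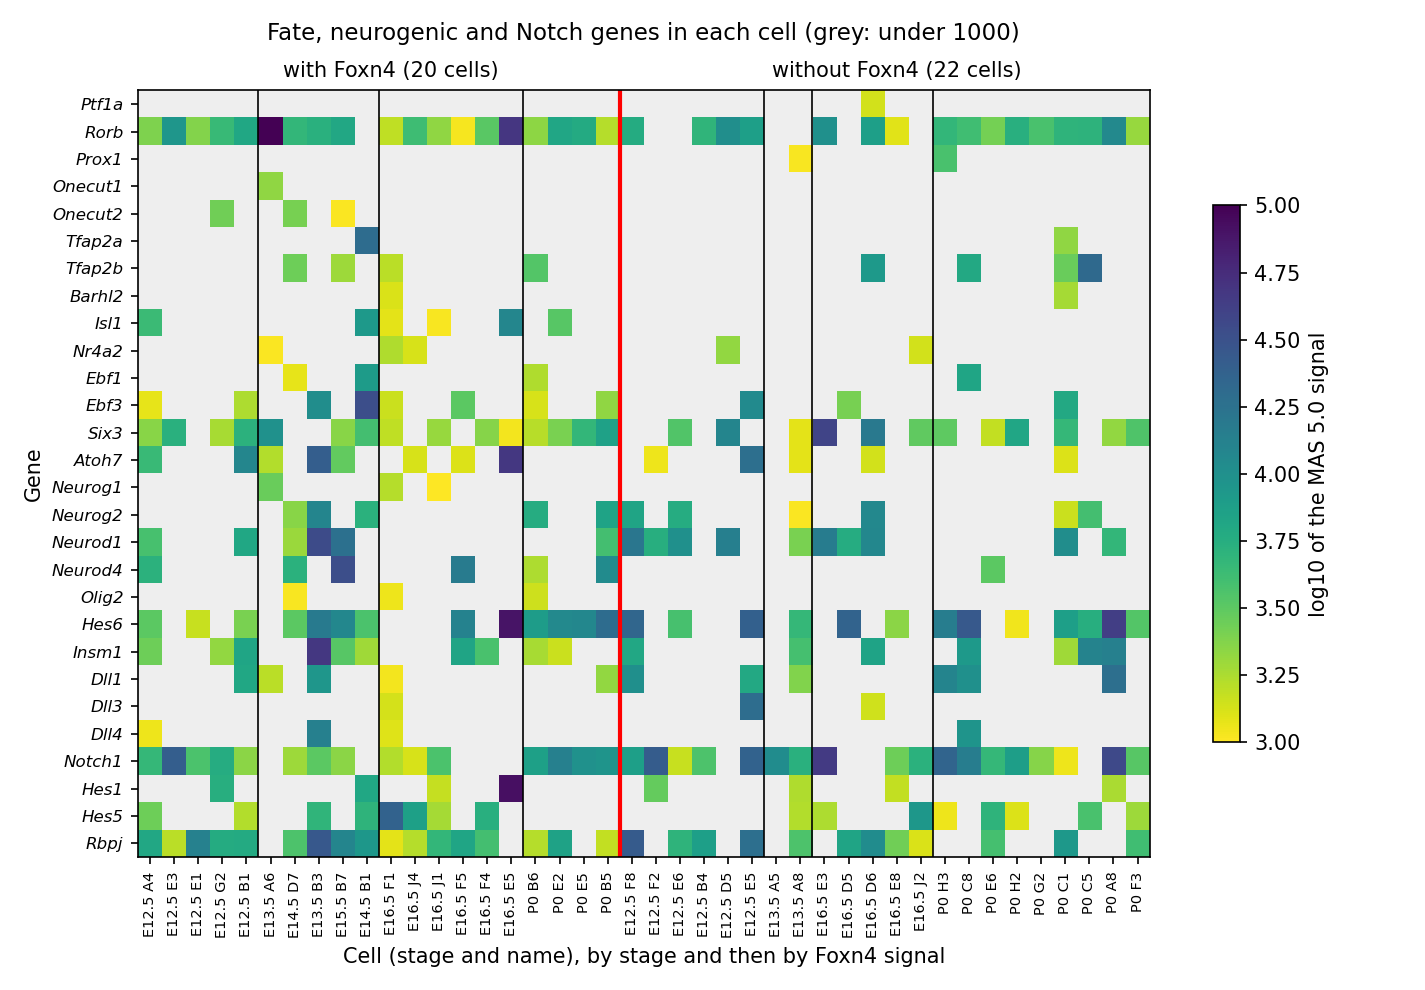
Signals of 28 fate, neurogenic and Notch genes (rows, italic symbols) in each of the 42 cells (columns), with the 20 cells with Foxn4 left of the red line and the 22 without to its right, ordered by stage and then by Foxn4 signal. Colour gives log10 of the MAS 5.0 signal from 1000 up and grey a signal under 1000; Isl1 is coloured in 6 cells left of the line and in none to its right, and Neurod4 in 6 and 1.

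The factors that drive neurogenesis, 11 bHLH factors and the zinc finger factor Insm1, were not called either. Of the 11, Neurod1, Neurod4 and Ptf1a are also among the fate factors above. A mean of 24.2% of the 12 factors was present with Foxn4 (SD 16.2) and of 17.4% without (SD 16.0), an adjusted difference of 4.54 points, which was 0.155 points without the cells with a Foxn4 signal between 500 and 2000. Atoh7, the factor required for ganglion cells, was present in 8 cells with Foxn4 and 5 without, Neurog2 in 5 and 6, and Hes6 in 13 and 13. Insm1, a gene of newborn neurons, was present in 10 and 7 cells (20.8 points), and it and Neurod4 were the 2 members at 20 points or more. Insm1 did not keep its direction under every setting, with a range of -1.89 to 49.3 points. Neurog1 and Olig2 were each present in 3 cells with Foxn4 and none without, at signals of at most 2888 (Neurog1, E13.5 cell A6) and 1429.5 (Olig2, P0 cell B6). Of the 6 positive values of both genes, 3 were those of E13.5 cell A6 and E16.5 cell F1.

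The Notch pathway did not stand apart. Notch signals from a ligand on one cell to a receptor on its neighbour and keeps the neighbour a progenitor. A mean of 29.0% of 29 genes was present with Foxn4 and of 26.2% without, an adjusted difference of -0.62 points, and none of 20 genes was called, with 9 of 20 above 0. Of the ligands, Dll4, a known target of Foxn4, was present in 3 cells with Foxn4 (E13.5 cell B3 at 13347, E16.5 cell F1 at 1257 and E12.5 cell A4 at 1128) and in 1 without (P0 cell C8 at 9225), an adjusted difference of 7.26 points with an interval of -9.37 to 31.8 for the unadjusted one. Dll1 was present in 5 and 6 cells, Dll3 in 1 and 2, Jag1 in 1 and 3 and Jag2 in 2 and 1. Dner, a non-canonical ligand, was present in 5 and 2 cells (20.4 points), the only member at 20 points or more. Of the receptors, Notch1 was present in 15 and 18 cells, Notch2 in 4 and 5, Notch3 in 7 and 9 and Notch4 in 0 and 3. Rbpj, the DNA-binding partner of the receptors, was present in 17 cells with Foxn4 and 12 without, which came to 30.5 points before and 16.1 points after allowing for stage and number of genes. Of the effectors, Hes1 was present in 4 and 4 cells and Hes5 in 8 and 8. The even total for Hes5 was made of opposite stages, with 8 of 16 embryonic cells with Foxn4 and 3 of 13 without, but 0 of 4 P0 cells with Foxn4 and 5 of 9 without.

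At the limit of 1000, the ganglion cell genes were the list with the largest adjusted difference, although the individual cells overlapped widely. Ganglion cells are the output neurons of the retina and the first to be born. A mean of 30.0% of 17 genes was present with Foxn4 (SD 24.3, range 0 to 76.5%) and of 14.7% without (SD 16.9, range 0 to 64.7%), an adjusted difference of 14.9 points. All 14 genes compared lay above 0, against 47.7% of all genes, 6 of the 14 lay at 20 points or more, against 6.68%, and 1 was called. The unadjusted differences by stage were less even. Only Isl1, Ebf3 and Stmn2 were higher with Foxn4 at each of E12.5, E16.5 and P0. Dcx, Gap43 and Elavl4 were even at E12.5 and higher at E16.5 and P0. Nefl (-60 points at E16.5), Ina (-50 at E12.5), Rbpms (-33.3 at P0), Elavl3 (-23.3 at E16.5), Nefm, Tubb3, Sncg and Cntn2 were lower at 1 or more of these stages. The list shares Isl1 (27.1 points), Ebf3 (28.0 points) and Ebf1 with the fate factors, so that 2 of its 6 genes at 20 points or more were already counted there. The members of the list are given because it stood out, chosen after their values were seen. Stmn2, a tubulin-binding protein of growing axons, was present in 13 cells with Foxn4 and 6 without (40.4 points), a call kept in 13 of 42 fits that each left out 1 cell, Gap43, a protein of growth cones, in 7 and 2 (22.7), Sncg, gamma-synuclein, in 8 and 6 (23.3), Dcx, a microtubule protein of migrating neurons, in 6 and 1 (20.1), Tubb3, neuronal tubulin, in 14 and 9 (19.2) and the RNA-binding protein gene Elavl4 in 4 and 1 (15.6). The neurofilament genes Nefl (5 and 5, 7.46 points), Nefm (4 and 3, 0.67) and Ina (7 and 7, 5.62) differed little, and Pou4f1, a homeobox factor of ganglion cells, was present in 3 and 1 cells. Rbpms was present in 6 and 5 cells (7.28 points), Cntn2 in 4 and 1 (9.51) and Elavl3 in 4 and 4 (1.70). Several of these genes are active in newborn neurons of other types.

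The difference was not even over stages or cells. The means were 15.3% with and 10.8% without Foxn4 at E12.5, 44.7% and 2.94% at E13.5 to E15.5, 29.4% and 23.5% at E16.5, and 30.9% and 15.0% at P0. At E13.5 to E15.5 both cells without Foxn4 were of E13.5, with 0 (A5) and 1 (A8) of the 17 genes. The E13.5 cells with Foxn4 had 5 (A6) and 1 (B3), so that the large difference at this combined stage cannot be told apart from the day. Of the 17 genes, 13 were present in E14.5 cell B1 and in P0 cell B6, 10 in E14.5 cell D7 and E16.5 cell F5 and 9 in E15.5 cell B7, all with Foxn4, and 11 in P0 cell C1, without Foxn4. At the other end, E16.5 cell J4 with Foxn4 had 0, as had 7 cells without Foxn4. Without the transitional cells the means were 25.7% with and 13.8% without Foxn4, and without Stmn2 they were 27.8% and 13.9%. Without E13.5 to E15.5 the adjusted difference was 10.4 points, and without P0 cell B6 it was 11.1. Without the cells with a Foxn4 signal between 500 and 2000 it was 9.65 points, and with the mean of the probe sets 9.89. It was smaller at higher limits of presence, at 8.39 points with presence taken at 2000 and 2.99 points with the 1386 genes of highest signal called present in every cell. At that last setting the blood genes (5.90 points) and the neurogenic factors (3.35 points) lay above it.

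**Figure D4:**
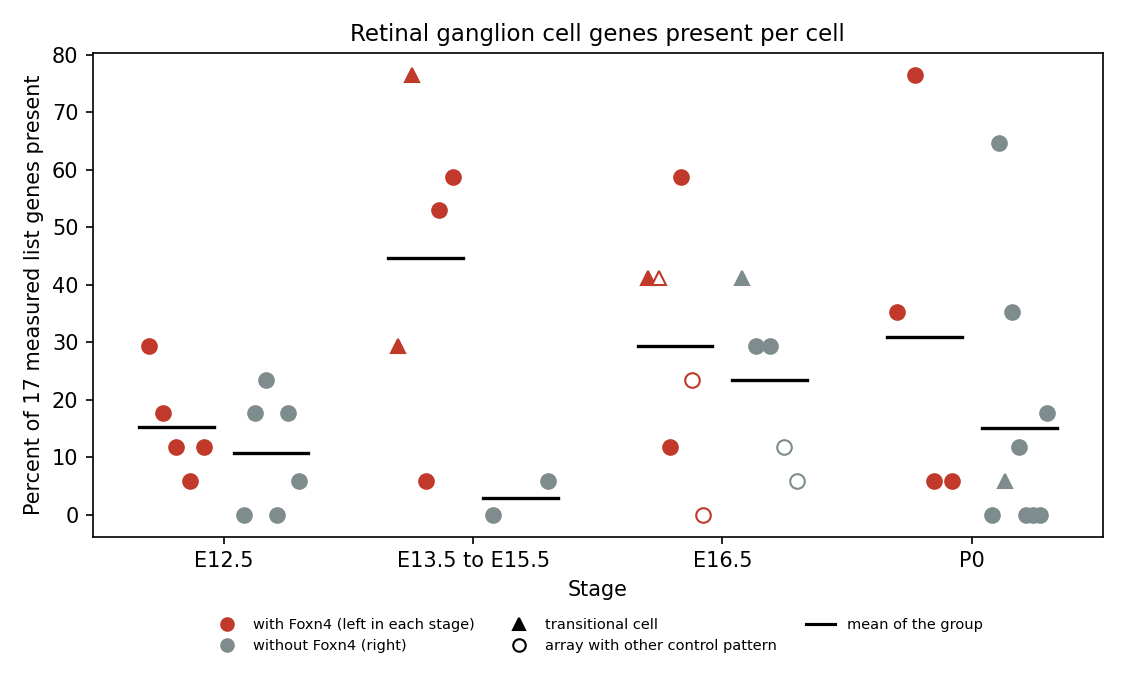
Percent of 17 retinal ganglion cell genes present (vertical axis) in each cell by stage (horizontal axis), with the cells with Foxn4 left of the cells without it. Lines are means (15.3 against 10.8% at E12.5, 44.7 against 2.94% at E13.5 to E15.5, 29.4 against 23.5% at E16.5, 30.9 against 15.0% at P0), triangles are transitional cells, open symbols are arrays with another control pattern, and both groups have a cell at 0 or 5.88% at each stage.

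Stmn2 shows how this looked for a single gene. With Foxn4 its signal ran from 21.0 to 33815 (median 2599) and without Foxn4 from 12.6 to 44105 (median 159.5). It was present at 10165 in E12.5 cell A4, 12564 in E12.5 cell E1, 33815 in E14.5 cell B1, 16528 in E14.5 cell D7, 7532 in E15.5 cell B7 and 24291 in E16.5 cell E5. The other 7 cells with Foxn4 were E13.5 A6 (1006), E16.5 F4 (2957), F5 (1302) and J1 (5072), and P0 B5 (7724), B6 (6443) and E5 (2240.5). The 6 cells without Foxn4 were E12.5 D5 (11831), E16.5 D6 (19140.2) and E3 (44105), and P0 C1 (13076), C8 (25929.7) and H3 (4607). The highest signal of all was thus in a cell without Foxn4.

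The cell cycle lists, which mark dividing cells, held no called gene. Genes of G1 and S phase were present at a mean of 55.2% of 40 genes with Foxn4 and 50.2% without (1.11 points adjusted), and genes of G2 and M phase at 55.7% of 46 genes and 51.8% (2.80 points). The stages ran apart. Genes of G1 and S phase were at 69% with and 45% without Foxn4 at E12.5, 52.1% and 46% at E16.5, and 51.9% and 56.4% at P0, and genes of G2 and M phase at 59.1% and 50.4%, 37.7% and 43.0%, and 79.9% and 59.7% at the same stages. Within the S phase genes, members differed in opposite directions. E2f5 and E2f1, transcription factors of the E2F family, were present in 13 and 5 cells (37.9 points) and in 14 and 8 cells (36.3 points), and Mcm4 and Mcm3, subunits of the replicative helicase, in 17 and 11 (33.8) and in 17 and 10 (31.4). The other helicase subunits did not share this, with Mcm2 in 16 and 18 cells (-9.22 points), Mcm5 in 14 and 18 (-11.2), Mcm6 in 16 and 16 (5.14) and Mcm7 in 17 and 18 (0.63), nor did Gmnn, an inhibitor of DNA replication licensing, in 13 and 20 (-26.2). These 5 genes were added after their values were seen. Of the 37 G1 and S phase genes compared, 17 lay above 0, 4 at 20 points or more and 5 at -20 points or less. Of the 45 G2 and M phase genes compared, 26 lay above 0, 4 at 20 points or more and 2 at -20 points or less. Cdk1, the kinase that drives mitosis, was present in 19 cells with Foxn4 and 14 without (26.9 points). Ccnb2 was present in 12 and 9 (26.6), Prc1 in 17 and 13 (25.8) and Ndc80, a kinetochore protein, in 8 and 14 (-26.6).

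E2f5 was the S phase gene with the largest difference, but not at every stage. It was present in 3 of 5 cells with Foxn4 and 4 of 6 without at E12.5, and at P0 in all 4 with (1598 in B5, 4618 in B6, 2032 in E2, 2183 in E5) and 1 of 9 without (1172 in F3). At E12.5 its signals were 1589, 1080.5 and 5655 in the positive cells with Foxn4 and 7757, 10964, 4128 and 8858 in those without. E2f5 was at 164835 in E13.5 cell A6. Its adjusted difference did not keep its direction under every setting, with a range of -5.52 to 46.6 points.

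Progenitor genes were mostly alike. A mean of 69.1% of 23 broad progenitor genes was present with Foxn4 and of 64.0% without (2.49 points), and 8 of 15 genes compared lay above 0. Rax, an eye field homeobox factor of early progenitors, was present in 12 cells with Foxn4 (60.0%, 36.1 to 80.9%) and 3 without (13.6%, 2.91 to 34.9%), an adjusted difference of 37.1 points, and Six6, a related factor of the eye field, in 16 and 9 (29.6 points). With Foxn4 the signal of Rax ran from 163 to 6898 (median 1299) and without Foxn4 from 34.0 to 5852 (median 230.3). Its 3 cells without Foxn4 were E12.5 D5 (5852), E16.5 E8 (1388) and E16.5 J2 (2761), and of the 12 cells with Foxn4, 6 had signals under 2000. Of the E16.5 cells with Rax, 3 of the 4 with Foxn4 and both without lay on arrays with another control pattern. Fgf15, a growth factor of dividing progenitors, was present in 14 and 18 cells (-18.4 points).

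Late progenitor and glial genes went both ways, and none was called. Over all 14 Müller glia genes the means were 36.4% with and 41.9% without Foxn4 (-2.66 points), but 41.7% and 32.9% at E16.5 and 57.1% and 55.6% at P0, and 4 of 9 genes compared lay above 0. Nfia, a nuclear factor of late progenitors, was present in 1 cell with Foxn4 (E16.5 cell F1, 1360.0) and in 6 without, all of P0 (A8 at 3150.4, C1 at 2569.7, E6 at 1366, F3 at 4758, G2 at 6239 and H3 at 3139), an adjusted difference of -20.5 points. At P0 it was thus found in 0 of 4 and 6 of 9 cells. Slc1a3, a glial glutamate transporter that progenitors share, was present in 7 and 14 cells (-23.2 points), and Glul, glutamine synthetase, in 15 and 21 (-16.4). Car2, carbonic anhydrase 2, was present in 7 and 9 cells (15.0 points).

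Photoreceptor genes were rare in both groups. A mean of 15.3% of 16 genes was present with Foxn4 and of 9.66% without (5.98 points), and all 4 genes compared lay above 0. The means were 11.2% with and 6.25% without Foxn4 at E12.5, 12.5% and 9.38% at E13.5 to E15.5, 14.6% and 13.8% at E16.5, and 25.0% and 9.72% at P0. At P0, cells B5 and B6 had 37.5% each and cells E2 and E5 had 12.5% each, the last within the range of the cells without Foxn4 (6.25 to 25.0%). Otx2, the factor that directs photoreceptor and bipolar fates, was present in 6 and 3 cells (15.8 points) and its target Crx in 5 and 2 (14.2). Rxrg, a nuclear receptor of cones, was present in 3 cells with Foxn4 (E16.5 cell F5 at 3101, P0 cell B5 at 1579 and P0 cell B6 at 3412) and in none without. All 3 of these cells also held Neurod4.

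The forkhead family was present at a mean of 13.9% of its 38 measured genes with Foxn4 and 9.45% without. Foxn4 is itself 1 of these 38 genes and raises the mean of its own cells by construction. Of the 11 family members compared, 4 lay above 0 and none was called. Foxn3, a relative known as a transcriptional repressor, was present in 7 cells with Foxn4 and 13 without (-29.5 points), and Foxj3 in 5 and 2 (26.2).

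Of the 12 genes called higher with Foxn4, 0.161% of the genes compared, none was a fate factor, and 1, Stmn2, belonged to one of the gene lists. Zfp598, a ubiquitin ligase of stalled ribosomes, was present in 15 of 20 cells with Foxn4 (75.0%, 50.9 to 91.3%) and 5 of 22 without (22.7%, 7.82 to 45.4%), an adjusted difference of 50.6 points. Its signals were low, from 38.8 to 5119 with Foxn4 (median 1342) and from 14.8 to 2937 without (median 307). Neurl4, which encodes a centriolar protein of the neuralized family, was present in 13 cells with Foxn4 and 3 without (49.9 points). Its signal was 12662 in E13.5 cell B3, 7637 in E16.5 cell F5 and 7468 in P0 cell E2, the highest of the cells with Foxn4, and 25354 in P0 cell A8, 1969.6 in E16.5 cell E8 and 1003 in E16.5 cell J2, the 3 cells without. Next came Atp9a, a phospholipid flippase (12 and 3 cells, 47.7 points), Zfp704 (14 and 7, 45.4), Fbf1, a centriole appendage protein (10 and 2, 44.6), Setd7, a lysine methyltransferase (8 and 1, 44.3), Supt5, a transcription elongation factor (16 and 6, 43.5), and Chka, choline kinase (16 and 7, 42.1). Ap1g1, an adaptor of clathrin vesicles (13 and 3, 41.4), Grpel1, a mitochondrial chaperone factor (13 and 6, 40.9), Stmn2 (40.4) and the globin gene Hbb-b2 (12 and 4, 40.3) followed.

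Hbb-b2 encodes adult beta-globin and is expressed by red blood cells. Its near-identical copy can share its probe sets, so that the gene behind its signal is uncertain. Of 6 other blood genes measured, a mean of 13.3% was present with Foxn4 and of 2.27% without (7.09 points), and E12.5 cell G2, with 5 of the 6, had the second highest Hbb-b2 signal, 36273, after E16.5 cell J4 (44934). The part of red blood cell RNA in the profiles was not tested. Of the other tissues, lens genes were present at 6.82% of 11 genes with Foxn4 and 0.826% without, with 8 of the 11 in E14.5 cell D7 and 4 in E13.5 cell A6, and keratins at 2.92% and 0.947% of 48 genes, with 11 in E16.5 cell F1 and 8 in E13.5 cell A6. Microglia genes were present at 1% and 0% of 10 genes, chemosensory receptors at 0.909% and 0.0590% of 77 and housekeeping genes at 76.8% and 79.4% of 19. These values move with Foxn4 status, and their part in the differences above was not tested. Without cells E13.5 A6 and E16.5 F1, 20 of the 26 called genes were still called and the ganglion cell genes differed by 14.9 points. That setting was added after seeing the data and kept E14.5 cell D7 and E12.5 cell G2. It therefore cannot decide the part of such genes.

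Of the 14 genes called lower with Foxn4, 0.187% of the genes compared, none belonged to a list. Nectin2, a cell adhesion molecule, was present in 3 cells with Foxn4 (15.0%, 3.21 to 37.9%) and 12 without (54.5%, 32.2 to 75.6%), an adjusted difference of -55.2 points. Its signal was 2433 in E12.5 cell A4, 2668 in E14.5 cell D7 and 1816 in E16.5 cell J4, the cells with Foxn4. Without Foxn4 it lay between 1405 and 17206 where present, and 9 of the 12 positive cells were above the highest cell with Foxn4, while the other 10 cells without Foxn4 were under 1000 and overlapped the group with it. Nop9, a factor of ribosome biogenesis, was present in 3 and 13 cells (-54.5 points), the chloride transporter gene Clcn4 in 5 and 13 (-49.6), R3hdm4 in 5 and 14 (-48.2), Leprotl1 in 5 and 14 (-46.2) and Setd1b, a histone H3 lysine 4 methyltransferase, in 3 and 11 (-44.8). Dguok, deoxyguanosine kinase of mitochondria, was present in 1 cell with Foxn4 (E15.5 cell B7, 15508) and 9 without (-44.0). Mtx1 (7 and 14 cells, -43.0), the adaptor gene Crkl (3 and 12, -42.4), Dynlt3 (3 and 10, -40.9), Luc7l2 (12 and 21, -40.9), Atxn7l3 (4 and 12, -40.7), the ubiquitin ligase gene Smurf1 (1 and 8, -40.4) and Tram1l1 (2 and 9, -40) followed.

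**Figure D5:**
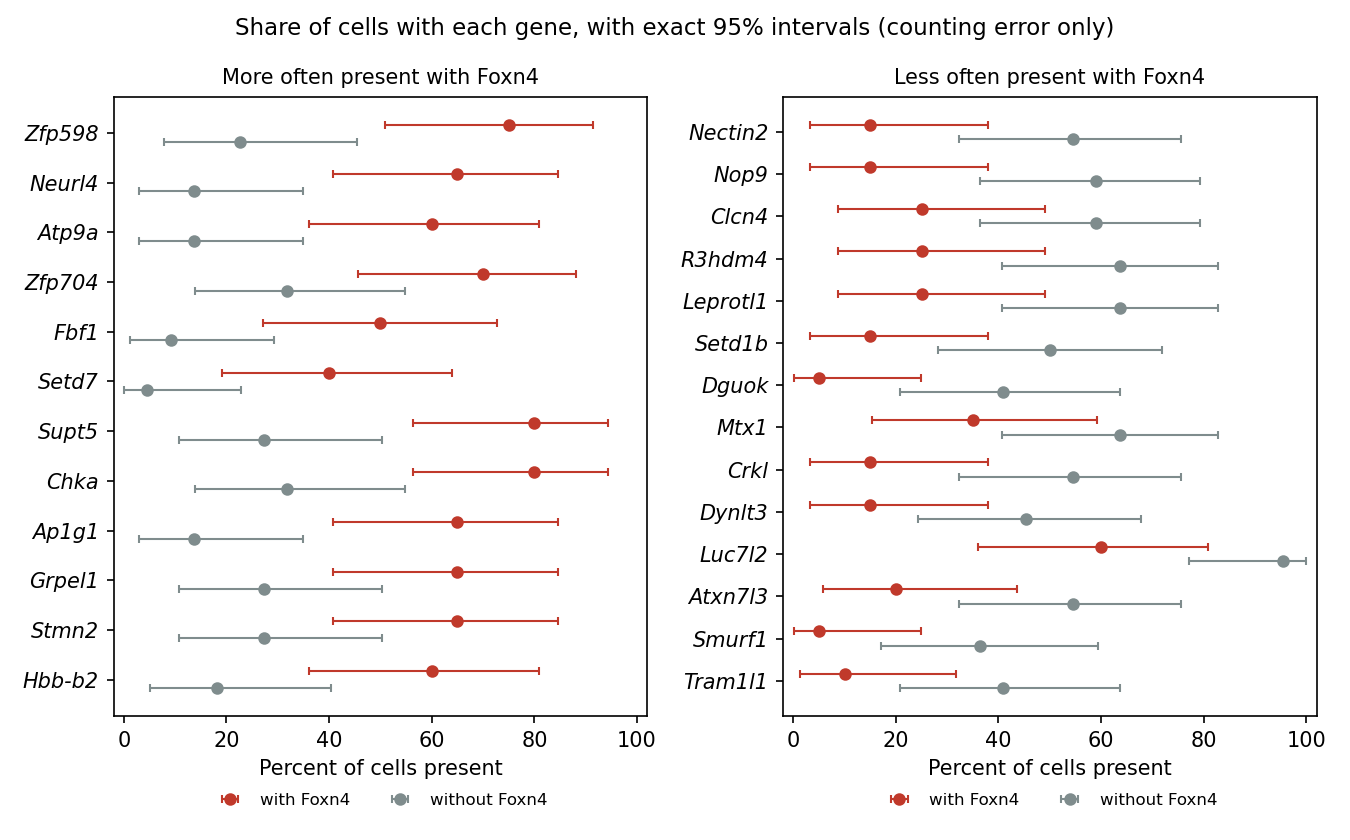
Percent of cells in which each of the 26 called genes was present (horizontal axis), for the 20 cells with Foxn4 (red, upper point) and the 22 cells without (grey, lower point), with exact 95% intervals (counting error only). The left panel holds the 12 genes called higher and the right panel the 14 called lower, each in order of the adjusted difference, from 75.0 against 22.7% for Zfp598 and 15.0 against 54.5% for Nectin2 at the top.

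The called genes depended on the limit for presence and on single cells. With each of the 42 cells left out in turn, 7 of the 26 (Zfp598, Zfp704, Nectin2, Nop9, Clcn4, R3hdm4 and Setd1b) were called each time. Another 6 were called in 21 or fewer of the 42 fits, Stmn2 in 13, Hbb-b2 in 18, Dynlt3 and Tram1l1 in 19, Atxn7l3 in 20 and Grpel1 in 21. With the 1386 genes of highest signal called present in every cell, the number of the cell with the fewest, 17 of the 26 genes could still be compared and 0 of the 26 were called, while 6 other genes were called higher and 5 lower. The lowest signal that counted as present was then 5199 in the median cell, above the signals of most of these genes. With presence taken at 2000, 5 of the 26 were still called, and without the transitional cells 17. Of the promoters of the called genes that matched by symbol, 6 of 9 for genes called higher and 7 of 12 for genes called lower held the motif GACGC, against 43.1% of the promoters of the genes compared. Both shares rest on few promoters, and their difference from that background was not tested.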

How the data were processed

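RNA of 42 single retinal cells of CD1 mice was reverse transcribed, amplified by 35 cycles of PCR, and 10 micrograms of cDNA per cell were hybridized to 1 Affymetrix mouse 430 2.0 array each. The deposited intensity values are MAS 5.0 signals that the authors scaled to a target intensity of 500 on every array, and they were used as deposited on a linear scale. Scaling each array to 1 mean makes a signal relative to the other genes of its cell, and 35 cycles of PCR spread the signals of rare transcripts.

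Of 45101 probe sets, 34958 had 1 gene symbol in the platform annotation and were used, 932 had several and 9211 were unnamed here, and through gene identifiers 34754 of the 35890 listed were found in the RefSeq table (GRCm38.p6). A gene had the highest signal of its probe sets (18194 genes) and was present at 1000 or more. Stages came from the sample labels and the transitional class from the paper. Presence (0 or 100) of each gene present in 5 to 37 cells was fitted by least squares (numpy 2.4.6) on Foxn4 status, stage (E12.5, E13.5 to E15.5, E16.5, P0) and number of genes present. The calculation was checked on data simulated from a linear model of the same kind, which does not show how often genes are called wrongly. No test was made, since no animal or litter is named and cells are not replicates. Intervals are exact (scipy 1.17.1) or Newcombe intervals at 95% and cover counting error only, and the precision of a share is limited by the number of cells. The hybridization control pattern was compared by its SD around the median array, with 0.5 as the limit.

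Named genes were the called genes (at most 15 a direction), every measured member of the lists of fate factors, neurogenic factors and Notch genes, the called members and the 4 members with the largest adjusted difference of every other list, and Foxn4. The cells, the 24 gene lists and the alternatives were chosen with earlier results of these data known. The alternatives changed the limit of presence, the gene value, the covariates, the limit for Foxn4 and the cells kept, and 2 that left out cells E13.5 A6 and E16.5 F1, or the transitional cells and the 5 E16.5 arrays with another control pattern together, were added after seeing the data. Some genes are not analysed here.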

Additional observations from a re-analysis of the deposited data

Results flagged for a closer look

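Within each stage, cells were set against the others of their group for Foxn4, the number of genes present and each gene list, and a cell was singled out where its gap to the nearest other cell took up most of the range of its group. Chance singles out about 1 in 20 such groups, and many lists are at 0 in most cells, where a single positive cell is enough.

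E16.5 cell E5 had a Foxn4 signal of 74909, against 7446 in the next cell with Foxn4 of its stage. E16.5 cell F1, a transitional cell with Foxn4, had 77.8% of the bipolar cell genes, 50.0% of the blood genes, 36.4% of the endothelium and mesenchyme genes, 33.3% of the pigment epithelium genes and of the amacrine and horizontal cell products, 22.9% of the keratins and 14.3% of the chemosensory receptors. E13.5 cell A6, also transitional and with Foxn4, had 33.3% of the pigment epithelium genes, 20.0% of the microglia genes, 16.7% of the keratins and 1.30% of the chemosensory receptors, and low shares of G1 and S phase genes (25.0%) and of housekeeping genes (57.9%).

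Among the other cells with Foxn4, E12.5 cell G2 had 83.3% of the blood genes. E12.5 cell A4 had 25.0% of the amacrine and horizontal cell products, 11.1% of the bipolar cell genes and 85.4% of the ribosomal protein genes. P0 cell B5 had 52.2% of the G2 and M phase genes, low for its group, and 2.08% of the keratins, and P0 cell B6 had 11.1% of the pigment epithelium genes.

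Among the cells without Foxn4, E16.5 cell D6, the only cell with Ptf1a, had 36.4% of the amacrine and horizontal fate factors and 33.3% of the cell cycle exit genes. P0 cell C1 had 50.0% of the neurogenic factors, 25.0% of the photoreceptor genes and 22.2% of the pigment epithelium genes. E12.5 cell E5 had 30.4% of the broad progenitor genes, low for its group. E16.5 cell J2 had 16.7% of the blood genes, 11.1% of the pigment epithelium genes and 1.30% of the chemosensory receptors, and E16.5 cell E8 had 6.25% of the keratins. P0 cell C5 had 0% of the endothelium and mesenchyme genes and 68.4% of the housekeeping genes, both low, P0 cell E6 had 18.2% of the endothelium and mesenchyme genes and P0 cell H3 had 9.09% of the lens genes.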

How the results depend on the processing

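No paired analysis was possible because the labels give no replicate numbers that groups could share. Of the 24 lists, 9 had the opposite sign with at least 1 cell left out and 14 under at least 1 alternative (log2 signals left out), with ranges over the alternatives that crossed 0 for the G1 and S phase genes (-2.49 to 9.13 points), the Notch pathway (-1.17 to 3) and the ribosomal protein genes (-2.27 to 2.96). The fate factors (0.764 to 6.38), the neurogenic factors (0.155 to 6.74) and the ganglion cell genes (2.99 to 17) kept their sign but not their size. The difference in genes present per cell lay between 401 and 662 when each cell was left out. The counts of called genes moved. Against 12 called higher and 14 called lower, presence at 500 gave 26 higher, presence at 2000 gave 8 lower, the same number of genes in every cell gave 6 and 5, leaving out cells with Foxn4 between 500 and 2000 gave 41 and 30, Foxn4 at 5000 or more gave 86 and 75, stage as the only covariate gave 40 and 5, no covariate gave 28 and 1, and log2 signals (limit 1.5) gave 4 and 1. Leaving out the transitional cells gave 28 higher, the E16.5 arrays with another control pattern 20 higher, all E13.5 to E15.5 cells 41 and 36, cells E13.5 A6 and E16.5 F1 20 and 9, the transitional cells and those arrays together 29 higher, and dropping the demand of 1 direction in 3 stages gave 22 lower. With Foxn4 at 5000 or more no P0 cell with Foxn4 was left (highest 3982), so that 1 direction was demanded at E12.5 and E16.5 alone. The causes of these shifts were not tested. With single cells left out the counts ran from 11 to 33 higher and from 10 to 21 lower, and the number called higher was 33 without E13.5 A8, 26 without P0 B5, 23 without E12.5 E3, 22 without E12.5 B1, 21 without E16.5 E5 and 19 without E16.5 J2 or P0 E5. Of the 26 called genes, 23 were still called with the number of genes on a log2 scale, 11 with the mean of the probe sets and 1 on the log2 scale. With the same number of genes in every cell, Chka was at -7.55 points, Luc7l2 at 2.99 points and Ebf3 at -7.63 points, each the reverse of its direction, and the cause was not tested. Other named genes also crossed 0 over the alternatives. Among them were E2f5 (-5.52 to 46.6 points), Ccnb2 (-3.34 to 39.6), Insm1 (-1.89 to 49.3), Sncg (-1.40 to 32.1), Nfia (-29.3 to 0.08) and Foxn3 (-42.3 to 0.71). With 20 and 22 cells, a share of 0 still allows up to 16.8% and 15.4%.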

Other observations

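The remaining gene lists held no called gene. Neurogenic progenitor genes were present at a mean of 31.7% of 21 genes with Foxn4 and 24.9% without (3.96 points adjusted), early and late progenitor genes at 30.6% and 31.8% of 17 genes (1 point) and cell cycle exit genes at 31.3% and 29.1% of 15 genes (-0.80 points). Bipolar cell genes were present at 11.1% and 7.07% of 9 genes (0.54 points), with 7 of the 9 in E16.5 cell F1, a transitional cell with Foxn4. Pigment epithelium genes were present at 4.44% and 3.03% of 9 genes (-1.93 points), endothelium and mesenchyme genes at 7.73% and 7.44% of 11 genes (0.56 points) and cytosolic ribosomal protein genes at 78.3% and 76.3% of 48 genes (-1.21 points). In each of these lists the ranges of cells with and without Foxn4 overlapped.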
